A study of Homo sapiens with 24 samples.

Results

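The dopamine D1 receptor gene *DRD1*, the G protein regulator *RGS2* and 7 other genes of cyclic AMP (cAMP) signalling were followed in A549 cells after exposure to dexamethasone (dex), a synthetic glucocorticoid (GC) that activates the glucocorticoid receptor (GR). The 9 genes, of 33087 gene symbols in the deposited RNA-seq count table, were *DRD1*, *RGS2*, *PDE4A*, *PDE4B*, *PDE4D*, *CREM*, *CREB1*, *PRKAR1A* and *AKAP12*. They were listed by name for their place in the pathway, with earlier results of these data known, and the counts of their 105 transcript rows, of 119207 rows in all, were summed per gene. A549 is an established human cell line from a lung adenocarcinoma, so every library came from the same line. Cells received 100 nM dex in ethanol (EtOH), or the same volume of EtOH alone (0.02% of the medium), for 1, 3, 5, 7, 9 or 11 h. Each of the 12 groups had 2 libraries of poly-A RNA labelled as biological replicates, which made 24 libraries. The study's methods speak of triplicates, and the labels were followed here.

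cAMP is a second messenger made by adenylyl cyclases when a receptor coupled to the G protein Gs is occupied, and it is destroyed by phosphodiesterases. It releases the catalytic subunits of protein kinase A (PKA) from their regulatory subunits, A-kinase anchoring proteins hold PKA at particular places in the cell, and PKA phosphorylates the transcription factor CREB at cAMP response elements (CREs) in DNA. In the airway the pathway is known from bronchodilators that raise cAMP and from PDE4 inhibitors, both of which are given alongside GCs.

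The libraries held 6708864 to 13748598 counts (median 10109393.5), and 19885 features passed the filter on low counts, all 9 genes among them. The response to dex was present in each time group. *TSC22D3*, a GC target that encodes GILZ, was higher with dex at all 6 times, by 3.26 to 4.50 on the log2 scale. *FKBP5*, a GC target that encodes a GR co-chaperone, was higher from 3 h onward, by 3.38 to 4.15. Of 5 epithelial markers, *KRT8* and *KRT18* were higher with dex from 3 to 11 h and *CDH1* at 5 and 7 h. *EPCAM* was lower at 5, 7 and 9 h, and *KRT19* at 5 and 9 h. The summed level of the list ran from 3908 to 10640 CPM with dex and from 3236 to 5155 with EtOH. CPM are counts scaled to a common library size. The other lists stood far lower. The summed level of 6 fibroblast markers was 8.06 to 26.3 CPM with dex and 15.5 to 22.1 with EtOH, and *COL1A1* was higher at 3 h and lower at 5, 7 and 9 h. Immune markers summed to 1.72 to 5.67 CPM with dex and 2.07 to 4.45 with EtOH, with *CD3E* at 0 counts in every library and *PTPRC* at 0 to 3. The 4 endothelial markers with a row summed to 0.398 to 1.22 CPM with dex and 0.0984 to 1.13 with EtOH. The part of these marker changes in the results was not tested.

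Levels can be compared between genes only per length, and TPM, the counts divided by transcript length and scaled to the same sum in each library, were computed for this. Over the 12 EtOH libraries *PRKAR1A* stood highest at 251 ± 15.0 TPM (SD), followed by *PDE4D* at 227 ± 21.6, *CREM* at 54.1 ± 5.61, *AKAP12* at 47.9 ± 3.96, *PDE4B* at 39.1 ± 2.56, *RGS2* at 25.97 ± 2.92, *CREB1* at 19.3 ± 3.47, *PDE4A* at 4.96 ± 0.846 and *DRD1* at 1.64 ± 0.248. The ranges of *PRKAR1A* and *PDE4D* overlapped, as did those of *CREM* and *AKAP12*, of *AKAP12* and *PDE4B*, and of *RGS2* and *CREB1*. The ranges of *PDE4B* and *RGS2*, of *CREB1* and *PDE4A*, and of *PDE4A* and *DRD1* did not. The TPM of *CREM* leans on short transcripts, which count for more per length. Over the 12 dex libraries *RGS2* stood at 97.3 ± 13.5 TPM, *AKAP12* at 74.1 ± 14.2, *CREM* at 44.4 ± 5.56, *PDE4B* at 24.3 ± 5.35 and *DRD1* at 0.197 ± 0.1198, and the ranges of *RGS2* and *AKAP12* overlapped.

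Promoters are shown for the 2 genes that differed from EtOH at every time and for the 3 genes with a full CRE. The windows come from RefSeq (GRCh38.p14) and run 5′ to 3′ on the strand of the gene, from 250 bases before a transcription start to 10 bases after it. Capitals mark the CRE core TGACG, searched on both strands, and the CRE palindrome TGACGTCA, which contains the core on each strand.
DRD1: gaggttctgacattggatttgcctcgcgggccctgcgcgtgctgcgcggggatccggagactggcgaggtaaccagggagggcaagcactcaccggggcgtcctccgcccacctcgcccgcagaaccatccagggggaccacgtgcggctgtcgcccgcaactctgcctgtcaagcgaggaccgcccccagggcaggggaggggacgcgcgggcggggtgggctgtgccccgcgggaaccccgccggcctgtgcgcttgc
RGS2: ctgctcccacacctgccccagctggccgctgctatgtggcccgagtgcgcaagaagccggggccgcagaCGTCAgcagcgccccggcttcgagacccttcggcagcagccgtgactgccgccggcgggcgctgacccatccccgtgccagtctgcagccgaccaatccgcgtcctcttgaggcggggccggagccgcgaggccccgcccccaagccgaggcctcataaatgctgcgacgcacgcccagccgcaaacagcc
PDE4A: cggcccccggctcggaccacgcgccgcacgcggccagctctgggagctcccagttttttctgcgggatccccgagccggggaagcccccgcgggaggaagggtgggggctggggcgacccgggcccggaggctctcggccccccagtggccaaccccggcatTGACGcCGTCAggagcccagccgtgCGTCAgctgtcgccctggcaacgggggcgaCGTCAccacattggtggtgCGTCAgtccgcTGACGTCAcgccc
CREM: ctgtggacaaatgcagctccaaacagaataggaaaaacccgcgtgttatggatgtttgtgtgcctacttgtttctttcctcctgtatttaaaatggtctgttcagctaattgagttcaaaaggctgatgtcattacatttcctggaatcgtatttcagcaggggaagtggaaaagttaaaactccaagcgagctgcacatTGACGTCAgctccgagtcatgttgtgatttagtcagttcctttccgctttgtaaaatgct
PRKAR1A: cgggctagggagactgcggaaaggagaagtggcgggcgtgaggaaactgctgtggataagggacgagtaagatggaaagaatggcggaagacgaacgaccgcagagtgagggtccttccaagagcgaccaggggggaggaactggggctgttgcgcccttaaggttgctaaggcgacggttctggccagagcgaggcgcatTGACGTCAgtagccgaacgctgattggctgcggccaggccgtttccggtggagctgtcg
These lie at chr5:175444173-175444432 on the minus strand for *DRD1* and, on the plus strand, at chr1:192808789-192809048 for *RGS2*, chr19:10416523-10416782 for *PDE4A*, chr10:35195652-35195911 for *CREM* and chr17:68512180-68512439 for *PRKAR1A*. The *CREM* window belongs to a start inside the gene. With the start as position 0, the palindrome began at -3 in *PDE4A*, at -50 in *CREM* and at -49 in *PRKAR1A*, and the core began at -181 in *RGS2*. The *PDE4A* window held 7 cores, which overlap in part, and the *DRD1* window held none. All 9 genes had at least 1 window in the table, 37 in all. The palindrome was in 5 of these 37, since *CREM* and *PRKAR1A* each have a second, overlapping window with the same site, and in 1.85% of all 35116 windows of 300 bases. The core was in 10 of the 37 and in 24.6% of all. The GR palindrome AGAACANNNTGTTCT was in 0 of the 37 and in 0.00285% of all, and its 6-base arm AGAACA was in 4 of the 37 (in *PDE4B*, *PDE4D* and *CREM*) and in 14.8% of all. A match is a description of the letters, and windows without one say nothing about binding elsewhere.

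Dex against EtOH was tested at each time by itself, 2 libraries against 2, with edgeR's quasi-likelihood test and Benjamini-Hochberg adjustment over all 19885 features, and a gene was called at an adjusted p of at most 0.1. Of the 54 tests of the 9 genes, 11 found a higher and 12 a lower level with dex. At 1 h, 1 gene rose (*RGS2*) and 1 fell (*DRD1*), while 0.533% of all features rose and 0.317% fell. At 3 h, 2 rose (*RGS2* and *AKAP12*) and 2 fell (*DRD1* and *PDE4B*), against 7.8% and 5.09% of all features. The same 4 genes were called in the same directions at 5 h, where 11.6% of features rose and 11.4% fell. At 7 h *CREM* fell as well, which made 3 lower genes, against 13.3% of features higher and 12.4% lower. At 9 h 2 rose and 2 fell, against 9.89% and 8.4%, and at 11 h 2 rose and 2 fell, against 5.35% and 3.26%. *PDE4A*, *PDE4D*, *CREB1* and *PRKAR1A* did not pass the test at any time. The median log2 fold change of the 9 genes lay between -0.20 and 0.12 over the 6 times, and that of all features between -0.0074 and 0.011. Whether replicates came from separate cultures beyond their label is not given, so the p-values measure the spread between these libraries. How often dex and EtOH libraries fail to overlap over all features was not counted. With 2 libraries against 2, a lack of overlap is therefore given as a description only.

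**Figure D1:**
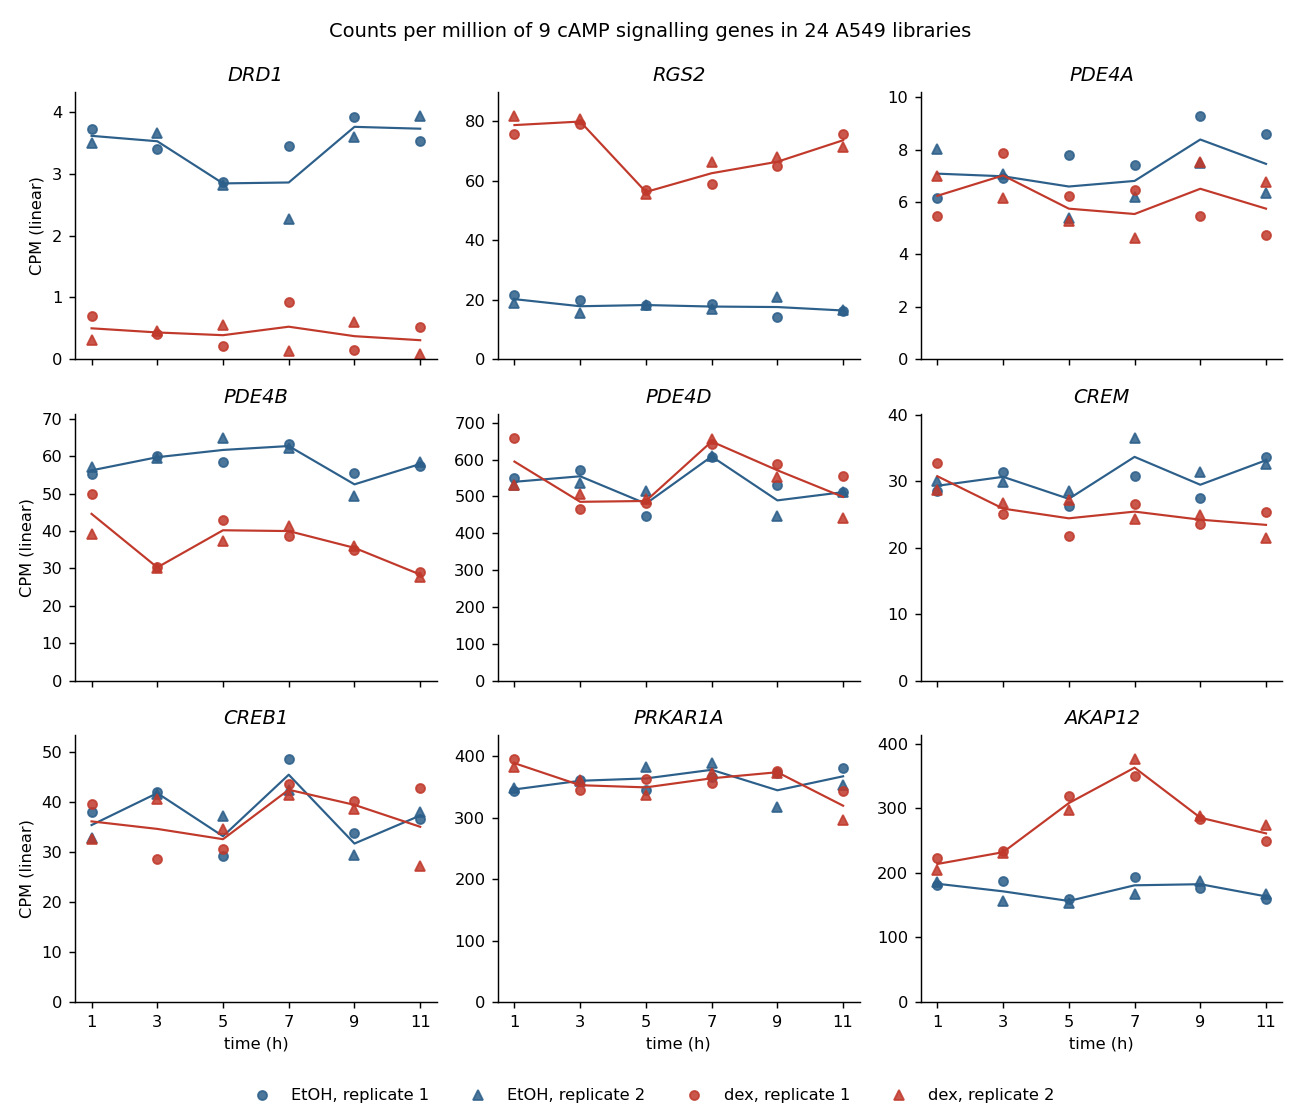
CPM of each of the 9 genes (linear axis from 0) against time in hours, with circles for replicate 1 and triangles for replicate 2, blue for EtOH and red for dex, and lines through the mean of the 2 libraries. The dex and EtOH points of *DRD1*, *RGS2*, *PDE4B* and *AKAP12* do not overlap at any of the 6 times, while those of *PDE4A* overlap at every time. The share of all features without overlap was not counted.

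**Figure D2:**
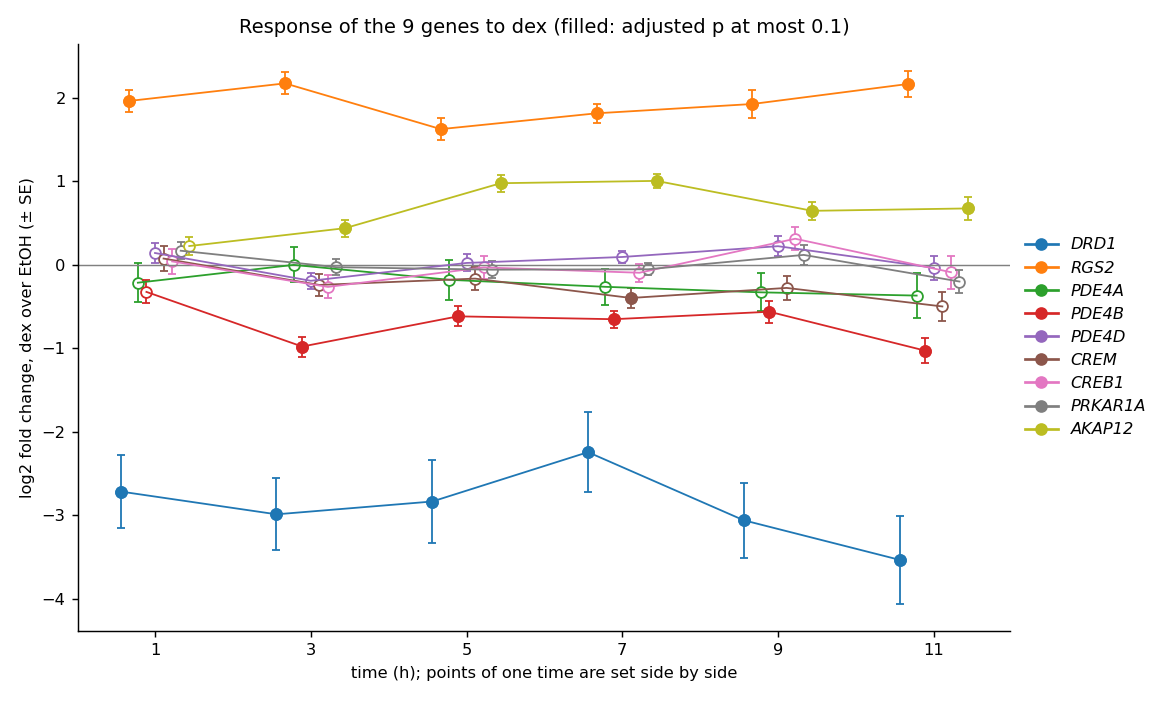
Log2 fold change of dex over EtOH (vertical axis, bars ± SE) of the 9 genes against time in hours, with filled points where the adjusted p was at most 0.1. *RGS2* lies between 1.63 and 2.17 at all times and *DRD1* between -3.54 and -2.25, *AKAP12* is above 0 and *PDE4B* below 0 with filled points from 3 h, and *CREM* has 1 filled point, at -0.40 at 7 h.

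*DRD1* (ENSG00000184845, chromosome 5, 175440039 to 175444208, minus strand, GRCh38) encodes the D1 dopamine receptor, which couples to Gs and raises cAMP. It is the receptor among the 9 genes and was the lowest of them in EtOH, so its counts are given as such. At 1 h the dex libraries held 7 and 2 counts and the EtOH libraries 43 and 49. At 3 h they held 4 and 5 with dex and 33 and 44 with EtOH. At 5 h the counts were 2 and 5 with dex and 28 and 34 with EtOH. All dex libraries were below all EtOH libraries at these times. At 7 h the counts were 10 and 1 with dex and 35 and 23 with EtOH, at 9 h they were 1 and 8 against 44 and 36, and at 11 h they were 6 and 1 against 28 and 36. The dex replicates differed from each other most at 7, 9 and 11 h, and no dex library reached the lowest EtOH library.

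With the 2 libraries of a group pooled and scaled for library size, EtOH held 6.66 times the dex level at 1 h (95% exact interval 3.36 to 15.0, covering counting error only) and 8.15 times at 3 h (4.08 to 18.5). The ratio was 7.34 at 5 h (3.36 to 19.02), 4.78 at 7 h (2.49 to 10.1), 8.47 at 9 h (4.24 to 19.2) and 12.04 at 11 h (5.52 to 31.1). The intervals of all 6 times overlap. *DRD1* fell at each time, by 2.72 ± 0.43 (SE) on the log2 scale at 1 h, 2.99 ± 0.43 at 3 h, 2.84 ± 0.49 at 5 h, 2.25 ± 0.48 at 7 h, 3.06 ± 0.45 at 9 h and 3.54 ± 0.53 at 11 h. The adjusted p-values ran from 3.09e-06 at 3 h to 0.00158 at 1 h. The size of the fall rests on single dex libraries: at 7 h it was -4.31 without the first dex library and -1.62 without the second, at 9 h -4.59 without the second, and at 11 h -5.19 without the first and -2.80 without the second. At 1 h it was -3.52 without the first dex library and at 5 h -3.63 without the second. The call held each time. In these bulk libraries, fewer cells with the transcript and less of it per cell cannot be told apart.

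*RGS2* (ENSG00000116741, chromosome 1, 192809039 to 192812283, plus strand) encodes a GTPase-activating protein that shortens the signal of G protein-coupled receptors, of Gq above all, and that can also lower adenylyl cyclase activity. It was the gene of the 9 with the largest rise. At 1 h its level was 75.7 and 81.5 CPM with dex and 21.5 and 18.9 with EtOH. At 3 h it was 79.0 and 80.6 with dex and 19.97 and 15.6 with EtOH. At 5 h it was 56.7 and 55.6 with dex and 18.2 in both EtOH libraries. The groups were far apart, with the 5 h dex libraries the lowest of all dex libraries. At 7 h the level was 58.8 and 66.1 CPM with dex and 18.5 and 16.9 with EtOH, at 9 h it was 64.9 and 67.7 against 14.2 and 20.8, and at 11 h it was 75.6 and 71.4 against 16.3 and 16.5. EtOH libraries stayed between 14.2 and 21.5 CPM throughout.

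The fold change of *RGS2* was 3.90 at 1 h, 4.51 at 3 h, 3.08 at 5 h, 3.52 at 7 h, 3.80 at 9 h and 4.49 at 11 h. On the log2 scale this was 1.96 ± 0.14 (SE), 2.17 ± 0.13, 1.63 ± 0.13, 1.81 ± 0.11, 1.93 ± 0.16 and 2.17 ± 0.16 in the same order. The adjusted p-values ran from 2.53e-15 at 7 h to 1.56e-06 at 11 h. The dip at 5 h is a description: the test of the dex effect over the 6 times did not pass for *RGS2* (adjusted p = 0.269), and neither did the test of 3 h against 1 h (difference 0.21, 95% interval -0.18 to 0.60) or of 11 h against 3 h (-0.0058, -0.41 to 0.40). Both *DRD1* and *RGS2* have 1 transcript row each, so these values carry no choice between transcripts.

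Phosphodiesterases of the PDE4 family hydrolyse cAMP, and 3 of its members were followed. *PDE4B* (ENSG00000184588, chromosome 1, 65792514 to 66374579) fell from 3 h onward. At 1 h it stood at 49.96 and 39.2 CPM with dex and 55.2 and 57.2 with EtOH. At 3 h it stood at 30.3 and 30.2 with dex and 60.0 and 59.5 with EtOH. At 5 h it stood at 43.0 and 37.4 with dex and 58.5 and 64.9 with EtOH. The dex libraries were the lower ones at each of these 3 times. At 7 h the values were 38.6 and 41.3 with dex and 63.2 and 62.3 with EtOH, at 9 h 35.0 and 36.0 against 55.6 and 49.4, and at 11 h 29.1 and 27.7 against 57.5 and 58.4. EtOH libraries ranged from 49.4 to 64.9 CPM and dex libraries from 27.7 to 49.96, so that 1 dex library at 1 h lay above the lowest EtOH library of another time.

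At 1 h the log2 fold change of *PDE4B* was -0.33 (95% interval -0.61 to -0.04, adjusted p = 0.665), which did not pass the test. It fell by 0.98 ± 0.12 (SE) at 3 h, 0.62 ± 0.12 at 5 h, 0.65 ± 0.10 at 7 h, 0.56 ± 0.13 at 9 h and 1.03 ± 0.15 at 11 h, with adjusted p-values from 1.31e-07 at 3 h to 0.00773 at 9 h. At 3 and 11 h the dex level was 0.507 and 0.490 times the EtOH level. *PDE4B* has 10 transcript rows, of which 7 were tested singly. The row with the most counts, PDE4B-206 with 32.6% of them, was lower at 5 times, and PDE4B-203 with 23.2% at 4 times. Over the 7 rows, 20 of 42 tests found a lower level with dex and 0 a higher one, and 27 and 0 had an unadjusted p under 0.05. As parts of the same sum, from the same libraries, these rows are not independent of the result for the gene. The share of all transcript rows called is not given here. Counts of rows that passed, for this gene and those below, are therefore descriptions only.

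*PDE4A* (ENSG00000065989, chromosome 19, 10416773 to 10469631) and *PDE4D* (ENSG00000113448, chromosome 5, 58969038 to 60522120) did not pass the test at any time. *PDE4A* ranged from 4.64 to 7.87 CPM with dex (median 6.19) and from 5.39 to 9.26 with EtOH (median 7.23). Its groups overlapped at each time, and its log2 fold changes ran from -0.37 to -0.0017 with 95% intervals between -0.94 and 0.42. *PDE4D* ranged from 442 to 659 CPM with dex (median 542) and from 447 to 610 with EtOH (median 531). Its log2 fold changes ran from -0.19 at 3 h to 0.22 at 9 h, the intervals reached from -0.38 to 0.47, and its groups did not overlap at 3, 7 and 9 h. At 9 h the difference was 0.35 and passed without the first EtOH library (adjusted p = 0.0646). Most of its counts, 61.4%, were on PDE4D-203, with 5.99% on PDE4D-205. Of 12 rows of *PDE4D* tested at 6 times, 1 passed once (PDE4D-226, lower at 5 h by 0.46 on the log2 scale, adjusted p = 0.0803). Of 4 rows of *PDE4A*, PDE4A-203 with 47.1% of the counts passed at 5 h (-0.77, adjusted p = 0.0937) and PDE4A-202 with 12.7% did not pass. At 5 h PDE4A-202 and PDE4A-204 were on the other side, at 1.24 ± 0.59 (SE) and 1.11 ± 0.76. PDE4A-209 was at -0.32 ± 0.60, and none of these other rows passed.

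*AKAP12* (ENSG00000131016, chromosome 6, 151239999 to 151358557) encodes gravin, a scaffold that binds PKA and other kinases near the plasma membrane. It rose from 3 h onward and stood highest at 7 h. At 1 h its level was 223 and 205 CPM with dex and 181 and 185 with EtOH. At 3 h it was 233 and 231 with dex and 187 and 156 with EtOH. At 5 h it was 319 and 297 with dex and 160 and 153 with EtOH. The dex libraries of 5 h lay above those of 3 h, while the EtOH libraries of both times overlapped. At 7 h it was 350.0 and 376 CPM with dex and 194 and 167 with EtOH, at 9 h 283 and 288 against 177 and 188, and at 11 h 249 and 273 against 159 and 168. The dex libraries lay above the EtOH libraries at each of the 6 times, and above every EtOH library of any time.

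The log2 fold change of *AKAP12* was 0.22 at 1 h (95% interval -0.0020 to 0.45, adjusted p = 0.767). It was 0.44 ± 0.10 (SE) at 3 h, 0.98 ± 0.10 at 5 h, 1.00 ± 0.08 at 7 h, 0.65 ± 0.11 at 9 h and 0.67 ± 0.13 at 11 h, with adjusted p-values from 2.24e-12 at 7 h to 0.00621 at 11 h. At 5 and 7 h the dex level was 1.97 and 2.01 times the EtOH level. The call at 3 h was lost without the second EtOH library of that time (0.31, adjusted p = 0.132) and for the row with the most counts alone (0.31, adjusted p = 0.130). That row, AKAP12-204, held 41.7% of the counts, and AKAP12-201 held 19.4%. AKAP12-201, AKAP12-202 and AKAP12-203 held 10575, 10556 and 10573 counts, near equal shares, and how reads that match several rows were placed is not stated. All 4 rows passed in the same direction, in 19 of 24 tests, but they are parts of the same sum and not independent of the gene's result.

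*PRKAR1A* (ENSG00000108946, chromosome 17, 68511780 to 68551319) encodes the type I alpha regulatory subunit of PKA, which holds the catalytic subunits inactive until cAMP binds. It did not pass the test at any time. Its level was 296 to 395 CPM with dex (median 362) and 317 to 389 with EtOH (median 360). Its log2 fold changes ran from -0.20 at 11 h to 0.17 at 1 h, with intervals between -0.50 and 0.39. Without the first dex library of 11 h, the difference at that time was -0.31 and passed (adjusted p = 0.0437). The 2 rows with the most counts, PRKAR1A-217 and PRKAR1A-203, held 17.8% and 17.3% of them. Of 90 tests on its 15 rows, 2 passed, both lower at 7 h (PRKAR1A-211, -0.47, adjusted p = 0.0465, and the short PRKAR1A-205, -1.83, adjusted p = 0.0675).

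*CREB1* (ENSG00000118260, chromosome 2, 207529737 to 207603431) encodes CREB, the activator that PKA phosphorylates. Its level was 27.3 to 43.6 CPM with dex (median 39.1) and 29.2 to 48.6 with EtOH (median 37.6). No time passed the test. At 9 h the dex libraries, at 40.2 and 38.7 CPM, lay above the EtOH libraries, at 33.9 and 29.5, and the log2 fold change was 0.31 (95% interval 0.02 to 0.60, adjusted p = 0.156). At 3 h the order was the opposite, with 28.6 and 40.7 CPM with dex and 42.0 and 41.6 with EtOH (-0.27, adjusted p = 0.271). At 11 h the difference was -0.09, but it was -0.45 and passed without the first dex library (adjusted p = 0.0869). The 2 rows with the most counts, CREB1-201 and CREB1-206, held 41.7% and 40.9% of them. Of 18 tests on 3 rows, 0 passed and 0 had an unadjusted p under 0.05.

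*CREM* (ENSG00000095794, chromosome 10, 35126791 to 35212958) encodes activators and repressors that bind CREs, and its internal promoter makes ICER, a short repressor that cAMP is known to induce. At 1 h it stood at 32.7 and 28.7 CPM with dex and 28.6 and 30.1 with EtOH. At 3 h it stood at 25.1 and 26.7 with dex and 31.4 and 29.9 with EtOH. At 5 h it stood at 21.7 and 27.1 with dex and 26.2 and 28.5 with EtOH. The groups overlapped at 1 and 5 h and not at 3 h. At 7 h the values were 26.6 and 24.3 with dex and 30.8 and 36.5 with EtOH, at 9 h 23.5 and 24.9 against 27.5 and 31.4, and at 11 h 25.3 and 21.5 against 33.7 and 32.6. At these later times the dex libraries were the lower ones.

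*CREM* fell at 7 h, by 0.40 ± 0.12 (SE) on the log2 scale (95% interval -0.64 to -0.16, adjusted p = 0.0118). The call was lost in 4 of 12 alternatives: without the second dex library (-0.34, adjusted p = 0.247), without the second EtOH library (-0.27, 0.336), with DESeq2 (-0.40, 0.131) and for the row with the most counts (-0.47, 0.1003). At 11 h the difference was -0.50 ± 0.17 and did not pass (adjusted p = 0.116), but it passed in 5 of 12 alternatives. Among these was the one fit with edgeR over all 24 libraries (-0.50, adjusted p = 0.0106). The difference was -0.62 without the first dex library, -0.48 without the first EtOH library and -0.52 without the second. These fits also joined all times, so their calls cannot be put down to single libraries.

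*CREM* has 37 transcript rows, of which 15 were tested singly. The 2 with the most counts, CREM-211 and CREM-239, held 26.5% and 11.8%. No row passed the test by itself in 90 tests with edgeR, and 9 tests had a lower and 0 a higher level with dex at an unadjusted p under 0.05. The split of *CREM* into these 2 rows and the 35 others was made after the values were seen, so it is described without a test. The 2 rows together stood between 7.01 and 13.2 CPM with dex and between 9.04 and 17.2 with EtOH. At 1 h the 35 other rows stood at 21.3 and 21.8 CPM with dex and 19.4 and 20.5 with EtOH. From 3 h on, the 35 other rows were lower in both dex libraries than in both EtOH libraries. At 7 h they stood at 14.4 and 12.7 CPM with dex and 19.1 and 19.9 with EtOH. At 11 h they stood at 12.8 and 12.9 with dex and 21.1 and 20.6 with EtOH, a ratio of means of -0.70 on the log2 scale, compared with -0.28 for the 2 rows with the most counts.

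**Figure D3:**
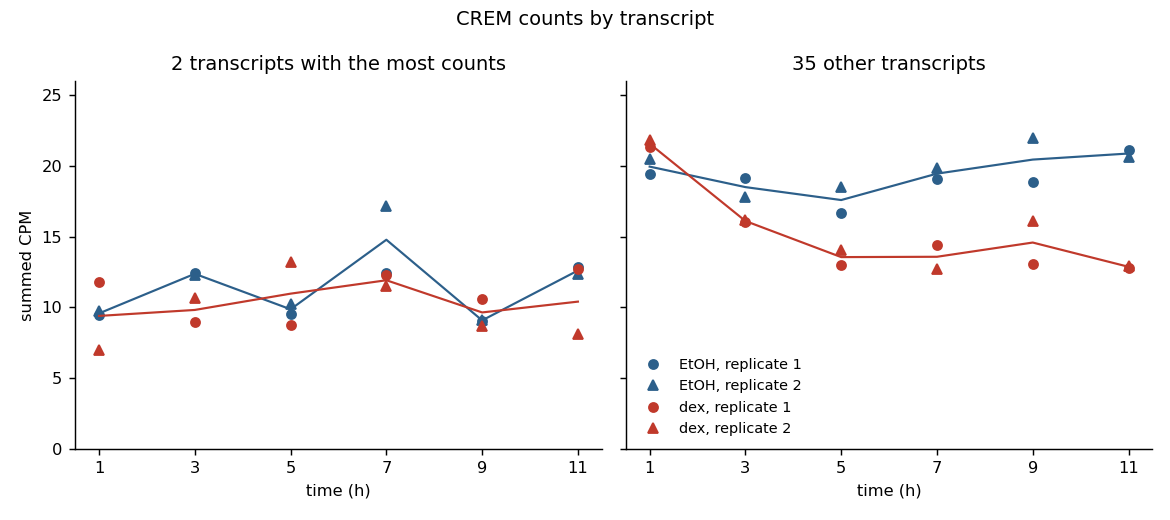
Summed CPM of *CREM* transcripts against time in hours, for the 2 transcripts with the most counts (left) and the 35 other transcripts (right), with the same symbols and colours as for the 9 genes. At 11 h the other transcripts stand at 12.8 and 12.9 CPM with dex and 21.1 and 20.6 with EtOH, while the groups of the left panel overlap at that time.

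Whether the response to dex changed over time was tested in one fit over the 24 libraries. The dex effect differed over the 6 times for *AKAP12* (adjusted p = 0.000794) and *PDE4B* (adjusted p = 0.0222), 2 of the 9 genes, compared with 13.7% of all features. *AKAP12* kept this call in all 31 settings, the reported one among them, with adjusted p-values up to 0.00530, and *PDE4B* likewise, up to 0.0851. For *DRD1* the same test gave an adjusted p of 0.852, for *CREM* 0.273 and for *PDE4A* 0.948. Between 1 and 3 h, the fall of *PDE4B* deepened by -0.65 (95% interval -0.99 to -0.32, adjusted p = 0.0226), 1 of the 9 genes against 4.35% of features. This call rested on the first dex library of 1 h, without which the difference was -0.46 (adjusted p = 0.263). The same difference for *AKAP12* was 0.21 (-0.07 to 0.50) and for *DRD1* -0.27 (-1.89 to 1.34). Between 3 and 11 h, 0 of the 9 genes passed, with 0 at an unadjusted p under 0.05 and 0 with DESeq2, against 0.161% of features with edgeR. In EtOH alone, 0 of the 9 genes differed over time by edgeR's test, with 2 (*PDE4D* and *CREB1*) at an unadjusted p under 0.05, against 0.0402% of features.

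The other genes of the pathway were taken from 9 lists by role, with 128 genes, of which 80 passed the filter. At 1 h, 3 of the 80 were higher with dex and 0 lower, where 0.533% of all features were higher and 0.317% lower. The counts were 6 and 4 at an unadjusted p under 0.05, and 3 and 0 with DESeq2. At 3 h 13 were higher and 8 lower, where 7.8% of all features were higher and 5.09% lower. At 5 h the counts were 14 and 19 (11.6% and 11.4% of all features), at 7 h 17 and 20 (13.3% and 12.4%), at 9 h 12 and 11 (9.89% and 8.4%), and at 11 h 10 and 9 (5.35% and 3.26%). DESeq2 called 7 higher and 4 lower at 3 h, 10 lower at 7 h and 6 lower at 9 h. One fit over all libraries called 16 lower at 11 h. The shares of all features called with DESeq2 or in that fit are not given here. The percentages above belong to edgeR's test of each time alone and are no background for these counts. The counts also moved in fits with single libraries left out. Those fits joined all times as well, so what a single library did to the counts cannot be read from them. The median log2 fold change of the 80 ran from -0.18 at 7 h to 0.01 at 1 h.

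Among 30 receptors that couple to Gs and their partner proteins, 10 were tested. Of these, 3 were higher with dex from 3 to 11 h, where 5.35% to 13.3% of all features were higher. *PTGER4*, the EP4 receptor for prostaglandin E, rose at all 6 times, from 11 counts in each EtOH library to 103 and 67 with dex at 1 h (log2 fold change 3.55 ± 0.29, adjusted p = 2.24e-07) and by 1.99 to 4.26 over the 6 times. *VIPR1*, a receptor for vasoactive intestinal peptide, was at 0.11 ± 0.62 at 1 h and rose by 2.00 to 3.44 from 3 h on. *PTGER2*, the EP2 receptor, rose by 1.12 to 1.76 from 3 h on, and its counts were 10 to 24 in EtOH libraries. *ADORA2B*, an adenosine receptor, fell at 7 h (-0.71 ± 0.21) and 9 h (-0.81 ± 0.22). The *HRH2* histamine receptor at 5 h (-1.75) and the orphan receptor *GPR3* at 7 h (-1.98) passed once each and were named after their values were seen. At 5, 7 and 9 h, 11.4%, 12.4% and 8.4% of all features were lower.

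Of 5 tested G protein alpha subunits, *GNAI3* passed at 5 h (-0.25) and *GNAI1* at 7 h (-0.30), both lower and both named after their values were seen. Of 6 tested adenylyl cyclases, *ADCY3* was lower at 5 h (-0.43 ± 0.12) and 7 h (-0.27 ± 0.10), and *ADCY1*, named after its value was seen, was lower at 5 h (-0.64). At 5 and 7 h, 11.4% and 12.4% of all features were lower. None of these 11 genes was called higher at any time, where 0.533% (at 1 h) to 13.3% (at 7 h) of all features were higher. With 11 genes, a lack of higher calls is near these shares. At 3 h, 1 alpha subunit (*GNAI2*) and 1 cyclase (*ADCY5*) were higher at an unadjusted p under 0.05, and 1 cyclase (*ADCY6*) was lower.

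Among 11 tested RGS genes other than *RGS2*, *RGS3* was lower at 3, 5, 7 and 9 h, by 0.52 to 1.27 on the log2 scale. At 9 h it stood at 6.78 and 6.77 CPM with dex and 16.2 and 16.4 with EtOH. *RGS17*, which acts on Gi family subunits, was lower at 5, 7 and 9 h, with its largest difference at 7 h (-0.69 ± 0.16). The genes that passed at 1 time or at times apart were *RGS9* (lower at 5 and 9 h, -1.36 and -1.30), *RGS10* (lower at 7 h, -0.46), *RGS14* (lower at 9 h, -1.56), *RGS11* (higher at 9 h, 1.15), and *RGS19* and *RGS20* (higher at 3 h, 0.80 and 0.54), which were named after their values were seen. Of the 11 genes, 1, 3, 3 and 4 were lower at 3, 5, 7 and 9 h, where 5.09%, 11.4%, 12.4% and 8.4% of all features were lower. At 3 h 2 were higher and at 9 h 1, where 7.8% and 9.89% of all features were higher. No tested RGS gene outside *RGS2* was called higher at more than 1 time. With 11 genes, so few higher calls are near the shares of all features, 0.533% (at 1 h) to 13.3% (at 7 h).

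Among 10 tested cAMP phosphodiesterases outside PDE4, 0 were higher and 6 lower at 5 h, and 2 higher and 7 lower at 7 h, where 11.6% and 13.3% of all features were higher and 11.4% and 12.4% lower. *PDE1C*, a calcium and calmodulin dependent enzyme, was at 0.17 ± 0.14 at 1 h and fell by 0.63 at 3 h, 2.23 at 5 h, 2.48 at 7 h, 1.79 at 9 h and 1.17 at 11 h. At 7 h it stood at 9.57 and 9.01 CPM with dex and 52.1 and 52.0 with EtOH. *PDE7B*, specific for cAMP, fell by 1.08 to 1.81 from 3 to 11 h, and at 11 h stood at 11.4 and 10.3 CPM with dex and 35.7 and 40.5 with EtOH. *PDE8A*, a high-affinity cAMP phosphodiesterase, fell by 0.40 to 0.70 from 5 to 11 h. Its relative *PDE8B* rose at 7 h (0.54 ± 0.12), 9 h (0.71 ± 0.15) and 11 h (0.73 ± 0.18). Also lower at 2 or more consecutive times were *PDE3A*, *PDE3B* and *PDE10A*, and higher at 1 time were *PDE7A* at 3 h (0.42) and *PDE2A* at 7 h (2.79, on 1 to 11 counts), all named after their values were seen. The summed level of the 13 listed genes ran from 318 to 551 CPM with dex and from 434 to 531 with EtOH.

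Among 9 tested PKA subunits, PKA inhibitors and EPAC genes other than *PRKAR1A*, 2 were higher and 2 lower at 5 h (11.6% and 11.4% of all features), 3 higher and 2 lower at 7 h (13.3% and 12.4%), 0 higher and 2 lower at 11 h (5.35% and 3.26%), and 0 in either direction at 1, 3 and 9 h by edgeR's test, with 0 at an unadjusted p under 0.05. The regulatory subunit *PRKAR2B* fell by 1.00 ± 0.18 at 5 h and 1.12 ± 0.16 at 7 h, when it stood at 9.29 and 12.3 CPM with dex and 20.6 and 25.6 with EtOH. The catalytic subunit *PRKACB* fell at 5 h (-0.44 ± 0.12), 7 h (-0.37 ± 0.10) and 11 h (-0.45 ± 0.14). The regulatory subunits *PRKAR1B* (0.55 ± 0.17 and 0.53 ± 0.17) and *PRKAR2A* (0.32 ± 0.11 and 0.31 ± 0.08) rose at 5 and 7 h. The catalytic subunit *PRKACA* at 7 h (0.29) and the PKA inhibitor *PKIA* at 11 h (-2.57, on 2 to 13 counts) passed once each and were named after their values were seen.

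Among 12 tested anchoring proteins other than *AKAP12*, 5 were higher and 1 lower at 5 h (11.6% and 11.4% of all features), and 6 higher and 1 lower at 7 h (13.3% and 12.4%). *AKAP13* was at 121 and 119 CPM with dex and 119 and 117 with EtOH at 1 h, and at 608 and 532 with dex and 102 and 112 with EtOH at 3 h. It rose by 1.62 to 2.41 from 3 to 11 h. *MAP2*, a microtubule-associated protein that binds PKA, rose by 0.90 to 2.98 from 3 to 11 h, from 6 to 27 counts in each EtOH library of those times. *AKAP10* rose at 5, 7 and 9 h, by 0.45 to 0.68. The cytoskeletal linker *EZR* was higher from 3 to 11 h (0.26 to 0.50), *AKAP9* at 5 and 7 h and *AKAP1* at 7 h, and the lower genes were *AKAP5* at 5 h (-0.62) and *AKAP8* at 7 h (-0.31), all named after their values were seen. The summed level of the 15 listed genes ran from 944 to 1545 CPM with dex and from 897 to 977 with EtOH.

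Of 6 relatives and coactivators of CREB, all tested, *ATF1* (-0.52 at 3 h), *EP300* (0.39 at 5 h) and *CRTC1* (-0.66 at 7 h) passed once each and were named after their values were seen. Of all features, 5.09% were lower at 3 h, 11.6% higher at 5 h and 12.4% lower at 7 h. Of 11 tested textbook targets of CREB, 2 were higher and 0 lower at 1 h (0.533% and 0.317% of all features), and 4 higher and 4 lower at 3 h (7.8% and 5.09%). At 5, 7, 9 and 11 h, 3 were higher each time and 3, 2, 1 and 3 lower, where 5.35% to 13.3% of all features were higher and 3.26% to 12.4% lower. *PER1*, a clock gene and also a known GC target, rose by 2.67 to 3.88 at all 6 times. *DUSP1*, a phosphatase of MAP kinases and also a known GC target, rose by 0.98 to 1.72. *FOS*, a subunit of AP-1, rose by 0.69 to 1.19 from 3 to 11 h. The orphan nuclear receptor *NR4A2* fell at 3, 5, 7 and 11 h, by 1.45 to 2.17, on 3 to 13 counts in dex libraries of those times and 20 to 46 in EtOH libraries. *NR4A3* fell at 3, 5 and 11 h, by 0.88 to 1.59. The neurotrophin gene *BDNF* fell by 0.68 to 1.11 from 3 to 11 h, and at 9 h stood at 12.4 CPM in both dex libraries and at 26.6 and 26.8 with EtOH. At 3 h alone *SIK1*, a kinase of CREB coactivators with a near-identical copy in the genome, was higher (0.87) and *FOSB* lower (-1.67), both named after their values were seen.

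**Figure D4:**
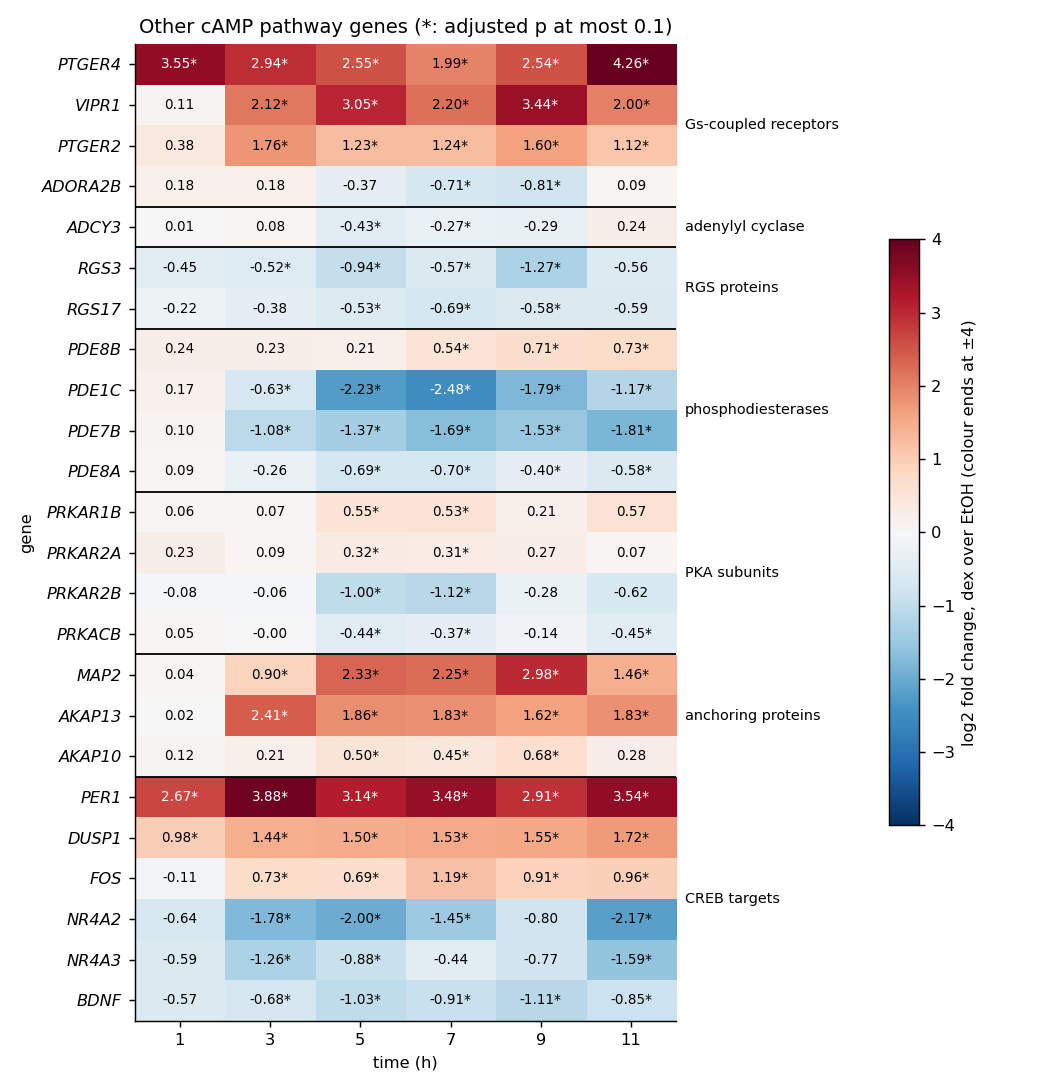
Log2 fold change of dex over EtOH (colour and printed value) at 6 times in hours for 24 genes of 7 pathway lists, named by the rule of at least 2 consecutive calls in one direction, with an asterisk where the adjusted p was at most 0.1. *PTGER4* and *PER1* are high at all times, while *PDE1C* is at 0.17 at 1 h and at -2.48 at 7 h.

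For *DRD1*, *RGS2* and *PDE4B*, the 3 genes whose log2 fold changes were largest on average, the 3 nearest of the 19884 other features were found by the Euclidean distance between their 6 log2 fold changes, which come from the same libraries and so share their deviations. Nearest to *DRD1* were the cytokine gene *IL11* (distance 1.74, log2 fold changes from -3.53 to -1.77), *RND1* (2.42, from -2.57 to -1.59) and the TNF family cytokine gene *TNFSF15* (2.46, from -3.64 to -0.73). Nearest to *RGS2* were the apoptosis inhibitor gene *BIRC3* (0.486, from 1.80 to 2.28), *ERRFI1*, an inhibitor of EGF receptor signalling (0.636, from 1.72 to 2.13), and *NFKBIA*, an inhibitor of NF-κB (0.706, from 1.53 to 1.89). Nearest to *PDE4B* were *OSGIN2* (0.263, from -1.06 to -0.17), a transcript row with no symbol in GENCODE release 29, which could belong to one of the 9 genes (0.264, from -1.12 to -0.36), and the ubiquitin ligase gene *TRIM6* (0.320, from -1.17 to -0.16), which may share reads with a readthrough transcript. *BIRC3*, *ERRFI1* and *NFKBIA* were higher at 1 h by 2.05, 1.77 and 1.69, and *OSGIN2* was at -0.17 at 1 h and -1.06 at 3 h. *DRD1* lay farther from its nearest features than *RGS2* and *PDE4B* did from theirs. Its log2 fold changes had SE of 0.43 to 0.53, compared with 0.11 to 0.16 for *RGS2* and 0.10 to 0.15 for *PDE4B*. The part of this error in the distances was not tested.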

How the data were processed

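RNA-seq was done on A549 cells given 100 nM dex or EtOH for 1, 3, 5, 7, 9 or 11 h, with 2 replicates each. The deposited values are raw counts per transcript: the authors mapped stranded, 50-base single-end reads of poly-A RNA to GENCODE release 19 transcripts with Bowtie 0.12.9 and counted them with samtools 1.3.1, and the submitters' processing notes name hg19. How reads matching several transcripts were placed, and whether strand was used, is not given in the sources used here. Which reads count for a transcript can therefore move single rows more than sums per gene.

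Here transcripts were given symbols, coordinates and lengths from GENCODE release 29 (GRCh38). Of 119207 rows, 110262 matched and held 94.076% of the counts, and the 8945 others were tested as single rows. Counts were summed per symbol. Each time was tested alone with edgeR 4.0.16 (quasi-likelihood, TMM scaling, its default filter over the 12 groups, R 4.3.3), which kept 19885 features. SE was taken as |log2 fold change| over the root of the F statistic. Differences across time were tested in one fit over the 24 libraries. CPM used TMM-scaled totals. Promoters were searched and ratio intervals computed in Python 3.11.15 with scipy 1.17.1, and plots made with matplotlib 3.10.9. The biological variation was 6.53% at 7 h to 12.7% at 11 h, and no replicates agreed within sampling noise (chi-square per degree of freedom 2.30 to 14.7). The test was tried on simulated data first.

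The 9 genes and all lists were chosen with earlier results of these data known. Of each list, genes called at 2 or more consecutive times in one direction are named, at most 3 a direction by mean size of change. Of the transcripts, the 2 with the most counts per gene are named. No share of all transcript rows called is given beside the counts of rows that passed. Durations follow the titles and the duration labels, although the labels' treatment text gives 1 h for every sample. Some of the 8945 rows without a symbol could belong to the 9 genes and are then missing from their sums. Alternatives were DESeq2 1.42.0, its size factors, other filters, one fit over all libraries, a replicate block, a threshold of 0.05, the transcript with the most counts, and each library left out. The fits with a library left out joined all times in one fit, while the reported tests took each time alone.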

Additional observations from a re-analysis of the deposited data

Results flagged for a closer look

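The effect of dex on *AKAP12* differed between the 6 times in the fit over 24 libraries (edgeR quasi-likelihood test with Benjamini-Hochberg adjustment, adjusted p = 0.000794), with log2 fold changes from 0.22 at 1 h to 1.00 at 7 h. The effect on *PDE4B* also differed between the times (adjusted p = 0.0222), with log2 fold changes from -1.03 at 11 h to -0.33 at 1 h. The difference in the effect on *PDE4B* between 3 and 1 h was -0.65 (adjusted p = 0.0226), and it did not pass without the first dex library of 1 h.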

How the results depend on the processing

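The calls of *DRD1* and *RGS2* kept their direction and side of the threshold in every alternative that tested them, but a filter of at least 10 counts in every library removed *DRD1*, which left 0 of the 9 genes lower at 1 h and 1 at each of 3, 5, 9 and 11 h. With the transcript with the most counts, 1 gene was higher at 3 h. Leaving out single libraries gave 1 to 2 genes higher at 3 h, 2 to 5 lower at 11 h (5 without the first dex library) and 0 to 2 that differed between 3 and 1 h. Without a filter, 1 gene (*CREB1*) differed over time in EtOH. The study's methods describe the EtOH control as paired, and the reported tests used no pairing. Correlations of same-numbered deviations were -0.0591 to 0.135, which with 2 libraries a group cannot show whether the replicate numbers pair the samples. The replicate block made 2 genes lower at 1 h, with *PDE4B* added (adjusted p = 0.0674). It also added calls for *CREB1* at 9 h (0.32, adjusted p = 0.0631) and *CREM* at 11 h (-0.50, adjusted p = 0.0769).

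Signs turned only for values that did not pass as reported or in the fit where they turned. With the transcript with the most counts, *PDE4A* was at 0.2452 at 1 h and 0.0286 at 3 h, *CREB1* at -0.0031 at 1 h and 0.0075 at 5 h, and *CREM* at 0.0211 at 5 h. Without a filter, *PDE4D* at 5 h was -0.0079. The difference of *RGS2* between 11 and 3 h was 0.0019 with DESeq2's size factors, 0.0016 with DESeq2 and 0 without a filter. With single libraries left out, *PDE4D* ranged from -0.0251 to 0.2879 at 1 h, -0.0766 to 0.1274 at 5 h and -0.2075 to 0.1175 at 11 h, *CREM* from -0.0289 to 0.159 at 1 h, and *PDE4A* from -0.1827 to 0.1722 at 3 h and -0.4364 to 0.091 at 5 h. *CREB1* ranged from -0.1132 to 0.1635 at 1 h, -0.1906 to 0.1589 at 5 h, -0.1916 to 0.0041 at 7 h and -0.4494 to 0.1985 at 11 h, the lowest of which passed. *PRKAR1A* ranged from -0.0617 to 0.0025 at 3 h and -0.1331 to 0.0194 at 5 h. The differences between times ranged from -2.2065 to 0.1875 (11 against 3 h) and -0.6366 to 0.5273 (3 against 1 h) for *DRD1*, and from -0.1867 to 0.1681 (11 against 3 h) for *RGS2*. The cause of these shifts was not tested.

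Of the pathway genes, DESeq2 called 7 higher and 4 lower at 3 h, 10 lower at 7 h and 6 lower at 9 h, and one fit over all libraries called 16 lower at 11 h. The counts also moved in fits with single libraries left out, which joined all times too and so mix that change with the loss of a library. A fit without one library assumes that the lone sample of its group varies like the other groups. *DRD1*, at 1 to 10 counts with dex, is limited by depth. Scaling by totals alone moved the median of all features by at most 0.0812 on the log2 scale.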
